A study of Homo sapiens with 8 samples.

Results

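The genes described here encode HSP70 chaperones: the stress-inducible HSPA6, HSPA1A and HSPA1B, the neighbouring HSPA1L, the constitutive cytosolic HSPA8 and HSPA2, the mitochondrial HSPA9, the HSP110-class HSPA4, the ribosome-associated HSPA14 and the microsomal HSPA13. These 10 genes, of 23368 gene symbols in the count table, were chosen by name as members of the family. The family was selected on the measured difference between MOV10 overexpression and control, in which HSPA6 and HSPA8 had been seen to differ in opposite directions. Values of the members in that comparison are therefore given as a description, with no test. All 10 members were in the table and passed the filter on low counts, HSPA6 through the overexpression libraries alone.

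The cells were HEK293F, an established line from human embryonic kidney, and MOV10 is an RNA helicase that binds Argonaute proteins and FMRP. The knockdown group (2 libraries, numbered 2 and 3) received MOV10 siRNA 3 times, 24 h apart. The control group (3 libraries) received an irrelevant siRNA on the same schedule, and the overexpression group (3 libraries) received 1 transfection of a plasmid for myc-tagged MOV10. All libraries were stranded TruSeq libraries from 1 ug of total RNA. An empty-plasmid control is not among the libraries analysed, so MOV10 itself and the delivery of a plasmid in place of siRNA cannot be told apart in the overexpression comparison. The share of cells that took up the plasmid is not given in the sources used here, and in bulk RNA fewer cells with a transcript and less of it per cell cannot be told apart. The labels do not state whether replicates are separate cultures, so the spread behind each p-value is that between libraries and could be technical.

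MOV10 stood at 76.8, 76.4 and 91.2 counts per 1000000 (CPM, with library sizes scaled by TMM) in the control libraries, 50.6 and 55.5 in the knockdown libraries and 2971, 2916 and 2454 in the overexpression libraries. Both groups thus lay on the side of control that their labels state. Library totals ran from 12.7 M to 32.8 M counts (M for 1000000). All 6 HEK293 markers examined reached 1 CPM, whereas 1 of 5 blood cell markers, 0 of 3 endothelial markers and 0 of 2 hepatocyte markers did, and HBB had no read. The HEK293 markers summed to 1205 to 1220 CPM in control, 1373 to 1447 in knockdown and 1061 to 1134 in overexpression libraries. VIM made up most of this sum, with means of 827 CPM in control, 1055 in knockdown and 772 in overexpression. With knockdown the means of VIM and NEFM were above control and those of PAX2, NEFL, KRT8 and KRT18 below it. With overexpression only NEFM was above control. The fibroblast markers, of which 2 of 4 reached 1 CPM, summed to 60.9 to 66.5 CPM in control, 44.1 to 46.8 in knockdown and 59.4 to 67.0 in overexpression libraries, and the part of these shifts in the results was not tested.

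HSP70 proteins bind exposed hydrophobic stretches of unfolded or newly made proteins and release them in a cycle of ATP binding and hydrolysis. J-domain proteins deliver substrates and start ATP hydrolysis, nucleotide exchange factors let ADP leave, and co-chaperones with TPR domains link HSP70 to HSP90 or to degradation. The inducible genes are transcribed when the heat shock factor HSF1 binds inverted repeats of the unit nGAAn, the heat shock elements, whereas HSPA8 is made in unstressed cells.

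The upstream sequences are shown because the members that differed most from control come from both classes, and because heat shock elements are the known control sequence of the inducible class. The 250 bases before the annotated start were taken from RefSeq (GRCh38.p14) for 9 members, all but HSPA14. The counts were made on hg19, so these coordinates belong to the RefSeq table and not to the count table. The windows are chr1:161524290-161524539 (plus strand) for HSPA6, chr11:123062137-123062386 (minus strand) for HSPA8, chr6:31815293-31815542 (plus strand) for HSPA1A and chr6:31827488-31827737 (plus strand) for HSPA1B. Each is written 5′ to 3′, and capitals mark every exact match to a pair of units. Elements with an imperfect unit were not searched for and stay in lower case.
HSPA6: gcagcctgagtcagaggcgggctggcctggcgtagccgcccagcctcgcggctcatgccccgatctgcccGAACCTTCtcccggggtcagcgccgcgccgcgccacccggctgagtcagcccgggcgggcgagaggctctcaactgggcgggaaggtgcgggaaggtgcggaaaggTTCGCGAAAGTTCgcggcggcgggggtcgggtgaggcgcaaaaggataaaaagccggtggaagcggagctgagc
HSPA8: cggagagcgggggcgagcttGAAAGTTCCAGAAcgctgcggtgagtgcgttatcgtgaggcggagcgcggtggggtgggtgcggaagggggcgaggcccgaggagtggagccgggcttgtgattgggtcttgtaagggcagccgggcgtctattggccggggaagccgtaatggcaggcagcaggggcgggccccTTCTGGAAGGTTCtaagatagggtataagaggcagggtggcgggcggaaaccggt
HSPA1A: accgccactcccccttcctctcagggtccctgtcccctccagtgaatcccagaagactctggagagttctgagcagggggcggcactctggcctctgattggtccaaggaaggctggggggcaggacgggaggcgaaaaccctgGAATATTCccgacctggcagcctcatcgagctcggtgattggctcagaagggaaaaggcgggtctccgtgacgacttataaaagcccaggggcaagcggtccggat
HSPA1B: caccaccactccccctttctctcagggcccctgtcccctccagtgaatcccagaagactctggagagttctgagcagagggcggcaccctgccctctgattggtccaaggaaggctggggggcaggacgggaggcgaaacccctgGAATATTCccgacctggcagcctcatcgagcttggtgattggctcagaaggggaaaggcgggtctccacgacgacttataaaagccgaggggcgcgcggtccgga

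The pair of units was searched as GAANNTTC and TTCNNGAA, each of which reads the same on both strands, and the run of 3 units as GAANNTTCNNGAA and its reverse complement TTCNNGAANNTTC. Every run of 3 units also holds overlapping pairs. A run of 3 units was present in 155 of 35116 RefSeq upstream windows of this length (0.441%), and a pair in 4067 (11.6%). HSPA6 held 1 run of 3 units, from 74 to 62 bases before the start, and a separate pair from 180 to 173. HSPA8 held 2 runs of 3 units, from 230 to 218 and from 55 to 43 bases before the start. HSPA1A and HSPA1B each held a single exact pair, at 106 to 99 and 105 to 98 bases. Their windows were identical at 235 of 250 aligned bases. HSPA1L, which is transcribed away from HSPA1A, shared 241 of its upstream bases with HSPA1A on the opposite strand, and with them the same pair of units. These letters were found in none of the windows of HSPA2, HSPA4, HSPA9 and HSPA13. Among the windows of the members, exact runs of 3 units were found only in those of HSPA6 and HSPA8. Both genes had been singled out on overexpression in the selection, so nothing is read from this. A part of these elements in the differences was not tested.

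HSPA6, an inducible member encoded by a single exon, was near the limit of detection except with MOV10 overexpression. It had 8, 3 and 5 reads in the control libraries, 7 and 4 in the knockdown libraries and 591, 498 and 251 in the overexpression libraries. In CPM these were 0.355, 0.155 and 0.334 in control, 0.222 and 0.213 in knockdown and 24.6, 22.3 and 19.3 in overexpression libraries. Every overexpression library lay far above every other library. The ratio of mean CPM to control was 78.4 with overexpression. The fitted log2 fold change was 6.28 ± 0.19 (SE, here and below derived from the edgeR F statistic). For HSPA6 this SE understates the uncertainty, since it is narrower than the counting error of the 16 control reads. Over all reads of a group, HSPA6 made up 23.1 reads per 1000000 with overexpression (exact Poisson 95% interval 21.9 to 24.4), 0.281 in control (0.160 to 0.456) and 0.211 with knockdown (0.105 to 0.377), where the intervals cover counting error only. The knockdown and control intervals overlapped. With so few reads, and with the count filter passed only through the overexpression libraries, no test of HSPA6 between knockdown and control is given.

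HSPA6 has a similar relative, the pseudogene HSPA7, with which 45.5% of its 50-base and 27.6% of its 100-base windows are shared. HSPA7 had 25, 21 and 10 reads in the overexpression libraries, 1, 1 and 1 in control and 2 and 0 in knockdown. In the overexpression libraries this came to 4.23, 4.22 and 3.98 HSPA7 reads per 100 HSPA6 reads. How the counting treated reads with several alignments is not given in the sources used here, so the HSPA7 reads may belong to either gene.

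HSPA1A and HSPA1B, the major inducible HSP70 genes, encode near-identical transcripts of a single exon each. HSPA1A stood at 1214, 1116 and 1103 CPM in control, 1414 and 1313 in knockdown and 2019, 2199 and 2202 in overexpression libraries. HSPA1B stood at 1200, 1088 and 1060 CPM in control, 1277 and 1327 in knockdown and 1971, 1923 and 2091 in overexpression libraries. For both genes the 3 groups did not overlap, with control lowest and overexpression highest. Mean CPM with overexpression was 1.87 times control for HSPA1A (log2 fold change 0.90 ± 0.05) and 1.79 times control for HSPA1B (0.84 ± 0.05). With knockdown HSPA1A rose by a log2 fold change of 0.25 ± 0.05 (edgeR adjusted p = 0.000764) and HSPA1B by 0.22 ± 0.05 (adjusted p = 0.00227).

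The HSPA1A and HSPA1B values are not independent of each other, since 72.6% of the 50-base windows and 69.9% of the 100-base windows of HSPA1A also occur in HSPA1B. HSPA1A took between 49.7% and 53.3% of the reads of the pair in every library. Counted as 1 gene, the pair had a log2 fold change of 0.87 ± 0.04 with overexpression and 0.24 ± 0.05 with knockdown (edgeR adjusted p = 0.000632).

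HSPA1L, best known from testis, lies beside HSPA1A on chromosome 6 and shares few windows with it (2.45% of 50-base and none of 100-base windows). It was expressed at 8.96, 10.1 and 9.42 CPM in control, 9.58 and 9.36 in knockdown and 15.9, 16.3 and 16.1 in overexpression libraries. The overexpression libraries lay above all others, and the knockdown libraries lay within the control range. The log2 fold change was 0.76 ± 0.09 with overexpression and -0.0011 ± 0.10 with knockdown (edgeR adjusted p = 0.995). In RefSeq order this cluster of 3 genes is flanked by LSM2, an RNA-binding Sm-like protein gene, and NEU1, the lysosomal sialidase gene. LSM2 fell with overexpression, by 0.19 on the log2 scale (SE 0.06, edgeR adjusted p = 0.0188), and NEU1 had -0.05 ± 0.07 (adjusted p = 0.570). With knockdown NEU1 rose by 0.23 ± 0.07 (adjusted p = 0.0164), and LSM2 had -0.09 ± 0.07 (adjusted p = 0.319).

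**Figure D1:**
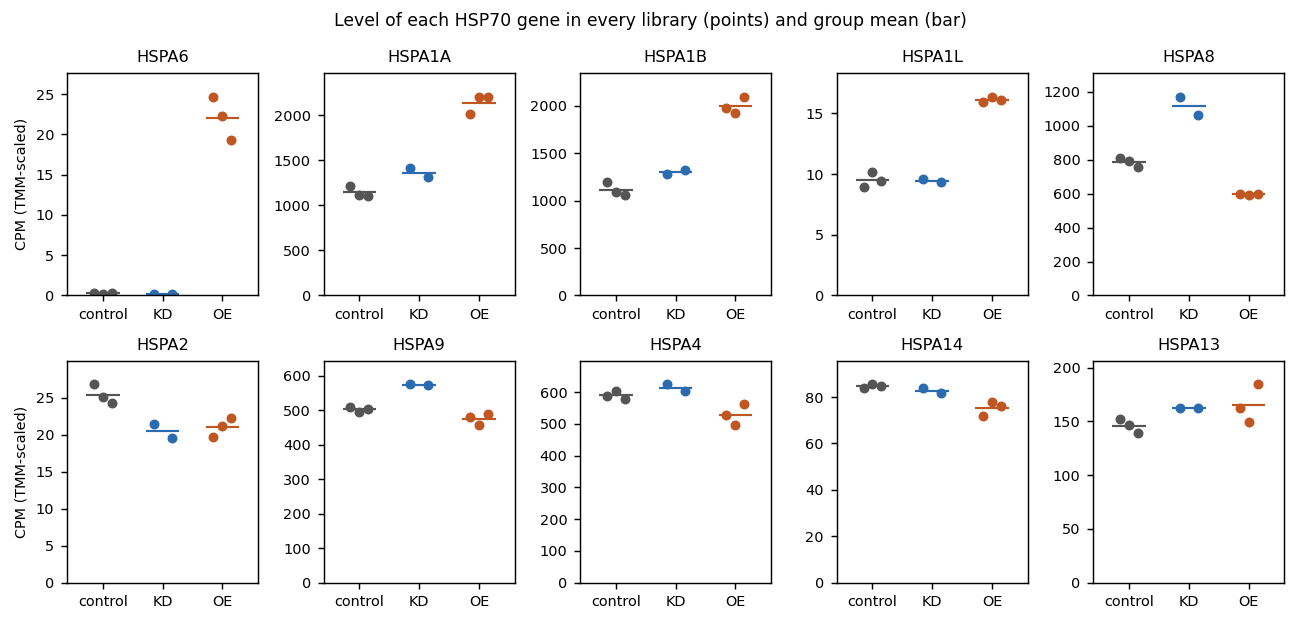
Level of each HSP70 gene in CPM (vertical axis, linear, from 0, a separate scale for each gene) in control, knockdown (KD) and overexpression (OE) libraries, where points are libraries and bars are group means. HSPA6 was at 0.155 to 0.355 CPM in all control and knockdown libraries and at 19.3 to 24.6 with overexpression, while HSPA8 was highest with knockdown (1169 and 1066 CPM) and lowest with overexpression (590 to 599 CPM).

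HSPA8, the constitutive cytosolic HSP70, lay on opposite sides of control in the treatments. Its level was 809, 793 and 756 CPM in control, 1169 and 1066 in knockdown and 599, 590 and 599 in overexpression libraries. The 3 groups did not overlap. HSPA8 rose with knockdown by a log2 fold change of 0.51 ± 0.05 (1.42 times mean control CPM, edgeR adjusted p = 1.10e-07), the largest change among the members that passed the knockdown test. With overexpression its log2 fold change was -0.40 ± 0.04, or 0.758 times mean control CPM. Both values rest on the same 3 control libraries. Transcripts of other genes share 15.4% of the 50-base windows of HSPA8 and none of its 100-base windows. The pseudogene HSPA8P1 shares the most, with 6.34% of the 50-base windows.

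HSPA2, a further cytosolic member with a role in sperm development, was the member that fell with knockdown. It stood at 26.8, 25.1 and 24.2 CPM in control, 21.4 and 19.5 in knockdown and 19.7, 21.2 and 22.2 in overexpression libraries. All 5 libraries of both treatments lay below every control library. The log2 fold change was -0.31 ± 0.08 with knockdown (edgeR adjusted p = 0.00524) and -0.28 ± 0.07 with overexpression. Without knockdown replicate 3 the knockdown change was -0.25 and did not pass (adjusted p = 0.0676, range over 18 alternatives 0.000635 to 0.0676).

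HSPA9, known as mortalin, pulls proteins into mitochondria as part of the import motor. Its level was 510, 494 and 504 CPM in control, 575 and 574 in knockdown and 479, 457 and 489 in overexpression libraries. It rose with knockdown by a log2 fold change of 0.19 ± 0.05 (edgeR adjusted p = 0.00273). With overexpression the log2 fold change was -0.08 ± 0.04, and the highest overexpression library (489 CPM) was close to the lowest control library (494 CPM). Scaled by library totals, this overexpression value was -0.04.

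HSPA4, an HSP110-class protein that acts as an exchange factor for HSP70, stood at 589, 602 and 578 CPM in control, 624 and 602 in knockdown and 528, 497 and 561 in overexpression libraries. HSPA14, a partner of a ribosome-bound J-domain protein, stood at 83.7, 85.5 and 84.8 CPM in control, 83.8 and 81.9 in knockdown and 71.9, 77.9 and 76.1 in overexpression libraries. Both were below control in all 3 overexpression libraries, with log2 fold changes of -0.16 ± 0.05 for HSPA4 and -0.17 ± 0.05 for HSPA14. Neither passed the knockdown test, with 0.06 ± 0.05 for HSPA4 (edgeR adjusted p = 0.408) and -0.03 ± 0.06 for HSPA14 (adjusted p = 0.703).

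HSPA13, a microsomal protein without a substrate-binding domain, showed small differences in both treatments. It stood at 153, 147 and 139 CPM in control, 162 and 162 in knockdown and 162, 150 and 184 in overexpression libraries. The knockdown libraries lay above control, and the overexpression libraries overlapped it. Its log2 fold change was 0.15 ± 0.07 with knockdown (edgeR adjusted p = 0.0839) and 0.17 ± 0.06 with overexpression. The overexpression value was 0.09 without overexpression replicate 3, the highest library. The knockdown difference passed the threshold without a count filter (adjusted p = 0.0354), with only the compared groups in the fit (0.00345), without overexpression replicate 2 (0.0342) and without overexpression replicate 3 (0.0068), and its adjusted p ranged from 0.00345 to 0.288 over 18 alternatives.

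Among the 10 members, HSPA1A, HSPA1B, HSPA8 and HSPA9 rose with knockdown (4 members) and HSPA2 fell (1 member). Of all 15254 genes tested, 19.9% rose and 19.1% fell with knockdown. Both knockdown libraries lay above every control library for 5 members, against 32.5% of all genes, and below every control library for 1 member, against 31.1%. All 3 overexpression libraries lay above every control library for 4 members (HSPA6, HSPA1A, HSPA1B, HSPA1L), where the share of all genes was 28.5%. They lay below every control library for 5 members (HSPA2, HSPA4, HSPA8, HSPA9, HSPA14), where the share was 27.5%. The members were selected on overexpression, so nothing is read from these last 2 counts.

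**Figure D2:**
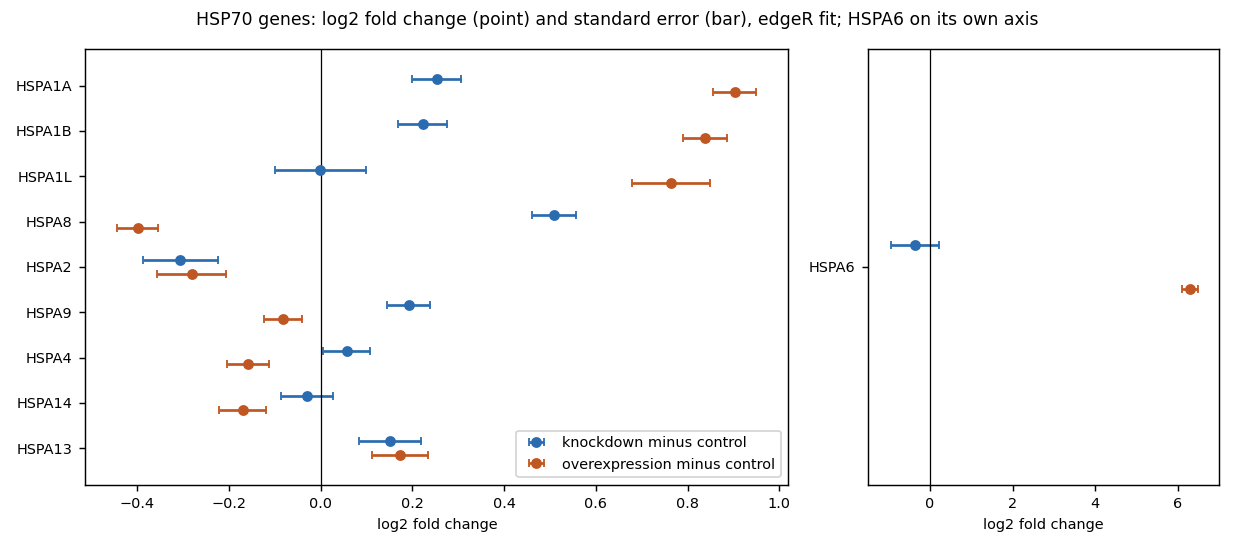
Log2 fold change against control (horizontal axis) of each HSP70 gene with knockdown and with overexpression, with HSPA6 on an axis of its own. Bars are 1 standard error derived from the edgeR F statistic, which for HSPA6 with overexpression is narrower than the counting error of its few control reads. HSPA8 lies at 0.51 with knockdown and -0.40 with overexpression, while HSPA1A and HSPA1B lie above 0 in both, and both comparisons use the same control libraries.

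Per kilobase of transcript, HSPA1A and HSPA1B were the most abundant members in control cells, at 461 ± 24.4 and 443 ± 29.3 CPM per kb (SD, n = 3), and their libraries overlapped. HSPA8 followed at 319 ± 11.0 CPM per kb, then HSPA4 (122 ± 2.56), HSPA9 (106 ± 1.72), HSPA14 (44.5 ± 0.470), HSPA13 (36.7 ± 1.73), HSPA2 (9.17 ± 0.467), HSPA1L (3.74 ± 0.236) and HSPA6 (0.119 ± 0.0462). All neighbours in this order other than HSPA1A and HSPA1B were apart in every control library. The order rests on a single transcript length per gene. All annotated exons together span 6269 bases for HSPA14 against the 1904 used, and 5777 for HSPA2 against 2767. With the longer length HSPA14 would fall below HSPA13 in control, while HSPA2 would keep its place there. In both treatments the mean of HSPA2 would then fall below that of HSPA1L. The order was the same with knockdown, where HSPA8 reached 454 ± 29.6 CPM per kb (SD, n = 2) against 516 ± 13.9 for HSPA1B. With overexpression HSPA1A and HSPA1B stood at 862 ± 42.2 and 791 ± 34.3 CPM per kb and HSPA8 at 242 ± 2.21. HSPA6 passed from the last place to a place above HSPA2 and HSPA1L, at 9.30 ± 1.14 CPM per kb against 7.61 ± 0.459 and 6.34 ± 0.0821. The overexpression libraries of HSPA4 and HSPA9 overlapped, as did those of HSPA13 and HSPA14.

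The summed level of the 10 members was higher than control in both treatments. It was 1619, 1527 and 1490 CPM per kb in control, 1898 and 1829 in knockdown and 2151, 2190 and 2288 in overexpression libraries, with no overlap between groups. The members took 0.426% to 0.457% of all counts in control, 0.501% to 0.513% in knockdown and 0.603% to 0.641% in overexpression libraries. The make-up of the sum differed between the treatments. HSPA8 supplied 20.7% ± 0.403 of it in control (SD, n = 3), 24.3% ± 0.946 with knockdown (n = 2) and 11.0% ± 0.343 with overexpression (n = 3). HSPA1A supplied 29.8%, 29.5% and 39.0% in the same order. The level of HSPA8 relative to HSPA1A and HSPA1B together was 0.340, 0.365 and 0.355 in control, 0.441 and 0.410 in knockdown and 0.153, 0.145 and 0.142 in overexpression libraries. This ratio was therefore higher than control in both knockdown libraries and lower in all 3 overexpression libraries. These sums and shares were not tested, since the members were selected on overexpression.

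**Figure D3:**
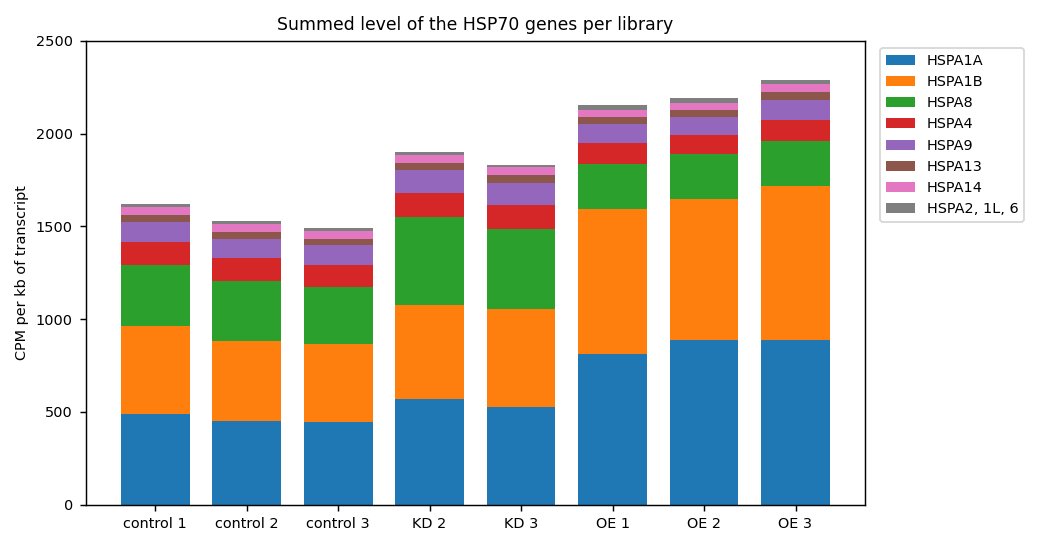
Summed level of the 10 HSP70 genes in CPM per kilobase of transcript (vertical axis, from 0), stacked by gene, in each control, knockdown (KD) and overexpression (OE) library, where HSPA2, HSPA1L and HSPA6 are drawn together. The sum was 1490 to 1619 in control, 1829 and 1898 in knockdown and 2151 to 2288 in overexpression libraries, and the HSPA8 band is widest with knockdown and narrowest with overexpression.

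Genes that work with HSP70 were examined from lists fixed by function, 75 genes in all, of which 72 were tested. The lists overlap, so some genes are counted in several of them and the list counts are not independent. With knockdown 21 rose and 4 fell, with a median log2 fold change of 0.07 against -0.00095 for all genes, of which 19.9% rose and 19.1% fell. With overexpression 17 rose and 25 fell, with a median of -0.07 against 0.015 for all genes. The shares of all genes that rose and fell with overexpression were 25.2% and 24.1%. The 17 include HSPA7 and CRYAB, which passed the count filter only through the overexpression libraries. With libraries scaled by their totals the partner genes numbered 14 higher and 7 lower with knockdown, so that 66.7% of those called were higher in place of 84.0%. Over all genes that share went from 51.1% to 39.5% under the same scaling. Leaving out knockdown replicate 2 or control replicate 2 left 12 partner genes that rose with knockdown.

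Among 6 tested relatives of the HSP70 superfamily, 3 rose and 1 fell with knockdown and 4 rose with overexpression (median log2 fold changes 0.12 and 0.19). Among all genes tested, 19.9% rose and 19.1% fell with knockdown, and 25.2% rose with overexpression. The 4 include HSPA7, which passed the count filter only through the overexpression libraries and whose reads may be those of HSPA6, so that 3 remain without it. HSPA5, the HSP70 of the endoplasmic reticulum also called BiP, rose in both, by 0.33 ± 0.06 with knockdown (edgeR adjusted p = 0.000102) and 0.38 ± 0.05 with overexpression (adjusted p = 3.93e-06). HYOU1, a large chaperone of the same compartment, rose with knockdown by 0.57 ± 0.06 (adjusted p = 3.70e-07) and had 0.05 ± 0.06 with overexpression. HSPA12A fell with knockdown, with a log2 fold change of -0.32 ± 0.07 (adjusted p = 0.00172). HSPA4L, the nearest relative of HSPA4, rose with overexpression by 0.26 ± 0.06 (adjusted p = 0.000598), and HSPH1 rose by 0.15 ± 0.05 with knockdown and 0.12 ± 0.05 with overexpression (adjusted p = 0.0341 and 0.0499). HSPH1 is close to the threshold with overexpression, and both DESeq2 and limma-voom gave 3 in place of 4 higher superfamily genes and 2 in place of 3 higher exchange factors.

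Of 18 tested J-domain partners, 4 rose and 2 fell with knockdown, and 5 rose and 8 fell with overexpression (medians 0.01 and -0.09). The shares over all genes were 19.9% and 19.1% with knockdown and 25.2% and 24.1% with overexpression. The counts that rose were near those shares. DNAJB1, the stress-inducible partner of cytosolic HSP70, rose with overexpression from 110 to 120 CPM in control to 202 to 210 CPM (log2 fold change 0.81 ± 0.05, edgeR adjusted p = 2.37e-10), and had -0.09 ± 0.06 with knockdown. DNAJC5, which guards synaptic vesicle proteins, fell in both, with -0.71 ± 0.05 with overexpression (adjusted p = 3.71e-09) and -0.32 ± 0.06 with knockdown (adjusted p = 0.000237). DNAJC7 and DNAJC2, the ribosome-bound partner of HSPA14, fell with overexpression by 0.36 and 0.37 on the log2 scale (adjusted p = 1.45e-06 and 9.68e-06). DNAJB6 and DNAJA1 rose with knockdown, by 0.43 ± 0.06 and 0.32 ± 0.06 (adjusted p = 5.93e-06 and 0.000156), and DNAJC6, the auxilin that uncoats clathrin vesicles with HSPA8, fell by 0.35 (adjusted p = 0.000153).

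Of 9 nucleotide exchange factors, 4 rose and 0 fell with knockdown, and 3 rose and 3 fell with overexpression (medians 0.13 and -0.03). The shares of all genes that rose and fell were 19.9% and 19.1% with knockdown and 25.2% and 24.1% with overexpression. The count of 0 was also 0 at an unadjusted edgeR p under 0.05, with DESeq2 and with limma-voom. BAG3, which links HSP70 to autophagy, rose in both, by 0.33 ± 0.06 with knockdown (adjusted p = 0.000253) and 0.36 ± 0.06 with overexpression (adjusted p = 2.95e-05). BAG1 rose with knockdown by 0.22 ± 0.07 and fell with overexpression by 0.33 ± 0.07 (adjusted p = 0.0223 and 0.0005). BAG2 rose with knockdown by 0.39 ± 0.06 (adjusted p = 6.51e-05). HSPBP1, an exchange factor of cytosolic HSP70, fell with overexpression, from 59.2 to 61.5 CPM in control to 36.8 to 47.0 CPM (-0.52 ± 0.08, adjusted p = 1.20e-05), and BAG6 fell by 0.38 ± 0.05 (adjusted p = 1.45e-06).

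Of 13 TPR and other cytosolic co-chaperones, 5 rose and 0 fell with knockdown, and 1 rose and 5 fell with overexpression (medians 0.09 and -0.09). Over all genes 19.9% rose and 19.1% fell with knockdown, and 25.2% rose and 24.1% fell with overexpression. The count of 0 was again 0 at an unadjusted edgeR p under 0.05, with DESeq2 and with limma-voom. HSP90AA1, the inducible cytosolic HSP90, rose in both, by 0.22 ± 0.05 with knockdown and 0.13 ± 0.04 with overexpression. HSP90AB1, the constitutive HSP90, rose with knockdown by 0.17 ± 0.05 (edgeR adjusted p = 0.0094) and fell with overexpression by 0.18 ± 0.04 (adjusted p = 0.00174). ST13, which holds HSP70 in its ADP form, rose with knockdown by 0.24 ± 0.05 (adjusted p = 0.00174). SGTA, TOMM34 and STIP1, which links HSP70 to HSP90, fell with overexpression by 0.40, 0.32 and 0.23 on the log2 scale (adjusted p = 2.14e-05, 0.000238 and 0.000343).

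Of 13 mitochondrial partners of HSPA9, 2 rose and 1 fell with knockdown, and 0 rose and 6 fell with overexpression (medians 0.08 and -0.15). Over all genes 19.9% rose and 19.1% fell with knockdown, and 25.2% rose and 24.1% fell with overexpression. Neither knockdown count exceeded its share over all genes. At an unadjusted edgeR p under 0.05 the count of 0 became 1, and it was 0 with DESeq2 and limma-voom. HSPE1, the mitochondrial HSP10, fell with overexpression by 0.25 ± 0.07 (adjusted p = 0.00595), and so did TIMM23, the import channel, by 0.24 ± 0.06 (adjusted p = 0.00182). HSPD1, the mitochondrial HSP60, rose with knockdown by 0.16 ± 0.05 (adjusted p = 0.0161), as did TIMM44, which anchors HSPA9 at the channel, by 0.17 ± 0.06 (adjusted p = 0.0328). GRPEL2, an exchange factor for HSPA9, fell with knockdown by 0.18 ± 0.05 (adjusted p = 0.0124).

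Of 5 tested heat shock factors and regulators, 0 rose or fell with knockdown, and 0 rose and 2 fell with overexpression (medians 0.07 and -0.13). The shares of all genes that rose and fell were 19.9% and 19.1% with knockdown and 25.2% and 24.1% with overexpression. The counts of 0 were also 0 at an unadjusted edgeR p under 0.05, with DESeq2 and with limma-voom. HSF1 mRNA fell with overexpression by 0.22 ± 0.07 (adjusted p = 0.00864), and HSBP1, which binds HSF1, fell by 0.32 ± 0.05 (adjusted p = 2.84e-05). With knockdown HSF1 had 0.15 ± 0.07 (adjusted p = 0.109).

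Of 22 tested genes outside the family that respond to HSF1, 12 rose and 0 fell with knockdown, and 10 rose and 4 fell with overexpression (medians 0.15 and 0.11). Over all genes 19.9% rose and 19.1% fell with knockdown, and 25.2% rose and 24.1% fell with overexpression. The 10 that rose with overexpression include CRYAB, which passed the count filter only through the overexpression libraries. CRYAB had 7, 5 and 1 reads in control, 7 and 5 in knockdown and 23, 24 and 10 in overexpression libraries. Of those that rose with knockdown, DNAJA1, HSPH1, HSP90AA1, HSP90AB1, HSPD1, BAG3, CHORDC1 and ST13 were already counted in the lists above. The count of 0 was also 0 at an unadjusted edgeR p under 0.05, with DESeq2 and with limma-voom. The small heat shock proteins HSPB8 and HSPB1 rose with overexpression by 0.87 ± 0.07 and 0.88 ± 0.08 (adjusted p = 5.08e-09 and 2.01e-08). HSPB8 had -0.05 ± 0.08 with knockdown, and HSPB1 rose by 0.28 ± 0.09 (adjusted p = 0.0149). SERPINH1, the collagen chaperone, rose with knockdown by 0.46 ± 0.06 (adjusted p = 3.64e-06). IER5, an immediate early response gene, rose with knockdown by 0.29 ± 0.05 (adjusted p = 0.000247). Heat shock genes had already been examined in these data, so this list is no independent support for a direction. Of the small nucleolar RNAs encoded in introns of members, SNORD63 of HSPA9 was measured, at 10 to 19 reads per library, and passed neither test (adjusted p = 0.979 with knockdown and 0.594 with overexpression).

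**Figure D4:**
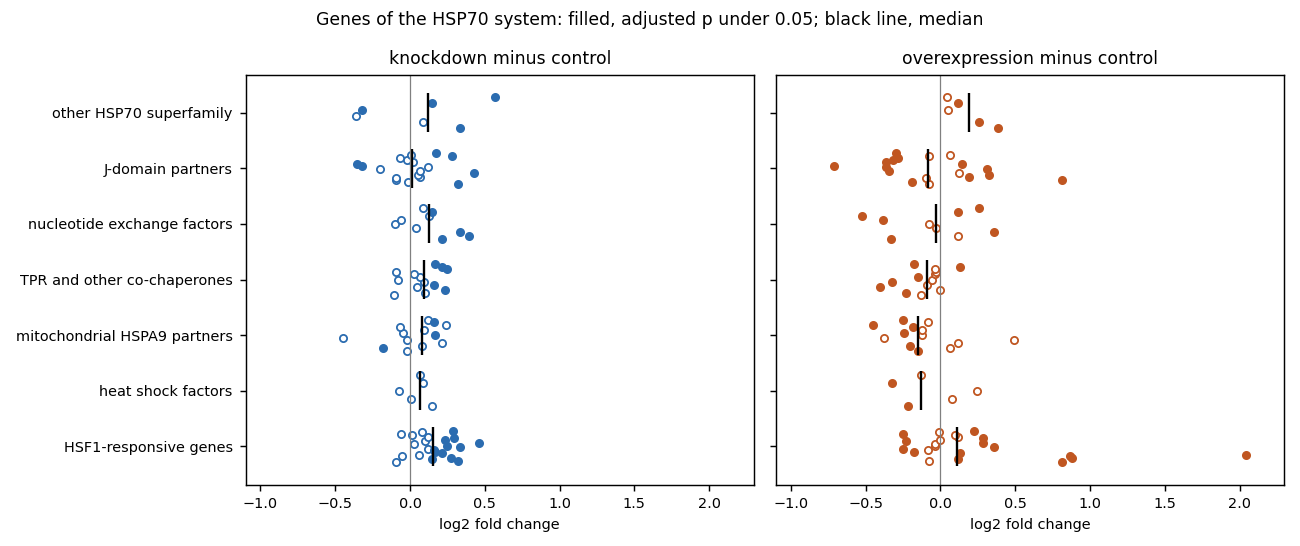
Log2 fold change (horizontal axis) of each tested partner gene by functional list, with knockdown (left) and overexpression (right) against control, where filled points passed an adjusted p of 0.05 and black lines are list medians. With overexpression HSPA7 lies at 4.01 beyond the right axis and CRYAB at 2.04, both with few reads. DNAJB1, HSPB8 and HSPB1 lie at 0.81 to 0.88 with overexpression, and the medians of the HSF1-responsive list are 0.15 and 0.11.

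The genes whose log2 CPM followed that of a member most closely over the 8 libraries were sought among 13254 genes whose log2 CPM averaged 1 or more. The libraries fall into 3 groups, so these correlations describe the pattern of group means and carry no p. For HSPA6 the closest were GDNF (Pearson r = 0.997), a growth factor, MOV10 itself (0.996), SYT17 (0.996), GALNT12 (0.996) and TIGD1 (0.995). GDNF stood at a mean of 4.42 CPM in control, 4.16 with knockdown and 11.4 with overexpression. For HSPA8 they were PTTG1IP (1.00), ARL6IP1 (0.999), GADD45B (0.997), RNASEH1 (0.997) and LETM1 (0.996). GADD45B, a stress-response gene, stood at 69.9 CPM in control, 123 with knockdown and 46.8 with overexpression. For HSPA1A they were LONRF3 (0.997), C7orf11 (0.994), GLUL (0.992), ST7-AS1 (0.992) and ZNF418 (0.989), and for HSPA9 TMEM14B (0.992), SAMHD1 (0.992), GFM1 (0.992), BMS1 (0.989) and RSL1D1 (0.987).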

How the data were processed

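The deposited values are raw counts, which the authors made by assigning reads to gene symbols. The tools listed, per the submitters' processing notes, are TopHat2 2.0.8, SAMtools 0.1.18, HTSeq 0.5.3p9, CASAVA 1.8.2, Trimmomatic 0.22 and edgeR, on hg19. Whether counting used strand, and what was done with reads of several alignments, is not given in the sources used here. From these counts, 15254 of 23368 symbols passed edgeR's filterByExpr (minimum count 10, minimum total 15). All 8 libraries were fitted together in R 4.3.3 with edgeR 4.0.16 (TMM factors 0.961 to 1.03, glmQLFit, two-sided quasi-likelihood F test, 1 mean per group), and p-values were adjusted by Benjamini-Hochberg over all genes tested, with calls under 0.05. The SE given for a log2 fold change is the absolute change divided by the square root of its F statistic. The fit was tested on simulated data. A chi-square per gene lay between 1.88 and 8.01 for libraries of 1 group, so none was counted as a duplicate.

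The members and lists were chosen with earlier results of these data known. Named are MOV10, all members, up to 4 genes per list and comparison with the smallest adjusted p, the 5 genes most like HSPA6, HSPA8, HSPA1A and HSPA9 (log2 CPM with a pseudocount of 0.5), and neighbouring genes. Some genes that the rule names are not reported here. Levels per kilobase used GENCODE 29 transcript lengths, and shared windows were exact matches between GENCODE 29 transcripts. Alternatives were other scalings and filters, DESeq2 1.42.0, limma-voom (limma 3.58.1), only the compared groups, a replicate block, HSPA1A and HSPA1B as 1 gene, and leaving out each library.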

Additional observations from a re-analysis of the deposited data

How the results depend on the processing

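Members that rose with knockdown numbered 4, and 3 to 5 over 18 alternatives. The single member that fell, HSPA2, kept its call except without knockdown replicate 3, so that leaving out libraries gave 0 to 1. Partner genes that rose with knockdown numbered 21, and 12 to 25 when a library was left out. Partner genes that fell with knockdown numbered 4, but 7 scaled by library totals, 7 with only the compared groups in the fit, and 2 to 5 when a library was left out. The cause was not tested. Partner genes with overexpression numbered 13 to 20 higher and 20 to 29 lower over the alternatives. Over all genes, scaling by library totals gave 2353 higher and 3611 lower with knockdown in place of 3036 and 2907. In raw counts, in place of counts per kilobase, HSPA8 made up 17.8%, 21.3% and 9.88% of the members' reads in control, knockdown and overexpression.

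With the replicate number as a block (replicate block), 4 members rose and 1 fell with knockdown, and partner genes numbered 17 higher and 4 lower with knockdown and 15 higher and 25 lower with overexpression. The block changed no call of a member. The deviations of same-numbered libraries from their group means correlated at -0.0847 to 0.0900. Deviations cancel within groups this small, so whether same-numbered libraries share a culture or batch cannot be told from these values. Not every library correlated best with its own number. HSPA6 could not be tested for knockdown with only the compared groups, since it then failed the count filter.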

Other observations

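Some genes beside the members on their chromosomes, in RefSeq order, also differed from control. CLMP, a cell adhesion gene beside HSPA8, rose with overexpression by a log2 fold change of 0.40 ± 0.10 (edgeR adjusted p = 0.0028) and had -0.04 ± 0.11 with knockdown (adjusted p = 0.826). RBM11, an RNA-binding protein gene beside HSPA13, rose with overexpression by 0.56 ± 0.10 (adjusted p = 0.000108) and fell with knockdown by 0.61 ± 0.12 (adjusted p = 0.000499). SUV39H2, a histone methyltransferase gene beside HSPA14, rose with knockdown by 0.19 ± 0.06 (adjusted p = 0.0129) and had 0.0060 ± 0.05 with overexpression (adjusted p = 0.934). FCGR2A, an Fc receptor gene beside HSPA6, fell with knockdown by 1.58 ± 0.30 (adjusted p = 0.000348) from a low mean of 1.31 CPM in control, and had -0.06 ± 0.23 with overexpression (adjusted p = 0.841). ETF1 and CTNNA1, on either side of HSPA9, passed neither test.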
